A study of Homo sapiens with 31 samples.

Results

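The 10 genes described here encode FOS, FOSB, FOSL1 and FOSL2 of the FOS family, JUN, JUNB and JUND of the JUN family, and ATF3, EGR1 and IER2. They were taken by name from the deposited gene tables, as 10 of the 57992 genes of the steady-state tables and 10 of the 43682 genes of the actinomycin D tables, and all 10 passed the filter on low counts in both. The samples were labelled PANC-1, an established pancreatic cancer cell line. The question of the series was what the RNA-binding protein KHSRP does to expression and to transcript lifetime. KHSRP is a known decay factor for transcripts with AU-rich elements and was studied here as an m6A reader. In the steady-state set, 3 libraries of the genotype KHSRP knockout (KO) stood against 3 labelled NC with the genotype WT. In the actinomycin D set, which carries the treatment of a drug that blocks transcription, 10 libraries labelled KHSRP knockout stood against 10 labelled NC with the genotype WT, 2 at each of 0, 2, 4, 6 and 8 h. All of them carried the label polyA RNA. Whether the knockout was 1 clone or a pool, and whether replicates were separate cultures, is not given in the labels, so p-values measure only how these libraries vary, possibly for technical reasons.

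AP-1 is a transcription factor made of pairs of basic leucine zipper proteins. JUN proteins pair with one another or with FOS proteins, whereas FOS proteins need a JUN partner. Its genes are textbook immediate early genes: growth factors, stress or inhibitors of protein synthesis switch on FOS, FOSB, JUN, JUNB, EGR1, ATF3 and IER2 within minutes through transcription factors already present in the cell, and their short-lived transcripts, several of them with AU-rich elements, are then lost quickly. FOSL1 is known to be kept high by MAP kinase signalling in many carcinomas.

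The promoters are shown because the genes moved together in the actinomycin D set, and the 5 with the most familiar response elements carry the comparison. In the deposited actinomycin D tables, on hg19, the genes lie at chr14:75745531-75748933 (FOS), chr19:45971254-45978437 (FOSB), chr11:65659520-65668016 (FOSL1), chr2:28615725-28640184 (FOSL2), chr1:59246463-59249719 (JUN), chr19:12902300-12904129 (JUNB), chr19:18390504-18392432 (JUND), chr1:212738749-212794119 (ATF3), chr5:137801168-137804992 (EGR1) and chr19:13261225-13265725 (IER2). Sequences are those of RefSeq on GRCh38.p14, for the 150 bases before the annotated start, read 5′ to 3′ on the gene's strand, and 9 of the 10 genes matched an entry. Capitals mark TGACG or its reverse complement CGTCA, the core of a cyclic AMP response element, TGACATCA in JUN, TATAAA, and in EGR1 the 2 CArG boxes, the core of a serum response element.
FOS (chr14:75278678-75278827, plus strand): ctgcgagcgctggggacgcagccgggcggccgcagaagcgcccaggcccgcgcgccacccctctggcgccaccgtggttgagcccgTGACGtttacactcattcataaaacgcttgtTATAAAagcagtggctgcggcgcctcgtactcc
FOSB (chr19:45467846-45467995, plus strand): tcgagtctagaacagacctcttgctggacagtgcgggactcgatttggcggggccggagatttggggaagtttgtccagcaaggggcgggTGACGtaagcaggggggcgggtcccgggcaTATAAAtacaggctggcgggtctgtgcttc
JUNB (chr19:12791336-12791485, plus strand): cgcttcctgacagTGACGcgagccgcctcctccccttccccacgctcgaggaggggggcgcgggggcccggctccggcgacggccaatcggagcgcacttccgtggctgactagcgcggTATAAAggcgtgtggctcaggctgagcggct
JUN (chr1:58784048-58784197, minus strand): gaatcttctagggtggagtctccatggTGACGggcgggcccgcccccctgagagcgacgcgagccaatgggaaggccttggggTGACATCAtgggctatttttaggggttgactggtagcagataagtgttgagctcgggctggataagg
EGR1 (chr5:138465329-138465478, plus strand): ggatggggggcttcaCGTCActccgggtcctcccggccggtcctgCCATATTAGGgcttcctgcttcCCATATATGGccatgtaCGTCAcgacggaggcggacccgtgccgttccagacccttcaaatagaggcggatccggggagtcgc
TGACG lay on either strand within the window from 250 bases before to 50 after the start in 8 of the 9 genes, against 24.6% of all 35116 windows. TATAAA on the gene's strand was found in 4 of the 9, and in 7.33% of all windows. In FOS, FOSB and JUNB it began at -33, -30 and -31, and in 1 window of ATF3 at -230. For every motif a gene counted when any of its windows matched, whereas the share of all windows counts each window singly, so the 2 are not like for like. Within these windows CArG boxes were found in EGR1 alone, at -105 and -83, and in 1.29% of all windows. Bases further upstream than 250 were not searched for any motif. The full element TGACGTCA, which also matches TGACG, was in JUND (1.85% of windows), TGANTCA in FOSL2 (7.71%), and TGACATCA in JUN and ATF3 (2.61%), all searched on both strands. Motifs and stretches were chosen after the expression values had been seen, and a match is a description of letters only.

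The labels were checked before any comparison. KHSRP, the targeted gene, had 9.68 to 10.98 CPM (counts relative to the library total) before further scaling in the 3 steady-state KO libraries, against 62.5 to 63.6 in the 3 NC libraries. In the actinomycin D set it had 134 to 164 in the 10 libraries labelled KO, against 406 to 434 in the 10 labelled NC. In CPM, the KO label of that set thus lay above both steady-state groups. The sets were processed separately, and this difference was not tested. CDKN2A, a gene known to be deleted in PANC-1, had 0 counts in the 10 actinomycin D libraries labelled KO and 2728 to 5476 counts in each of the 10 labelled NC, against 6 counts in each steady-state KO library and 0 in each NC library. CDKN2A thus goes against the PANC-1 label of the actinomycin D libraries labelled NC. An effect of the KHSRP genotype cannot be told apart in that set from any other difference between the labels, cell line included. The 7 ductal epithelial markers averaged at least 1 CPM in 7 of 7 genes in both steady-state groups and in the actinomycin D libraries labelled KO, and in 3 of 7 in those labelled NC; their summed level was 4582 to 5861 CPM in actinomycin D libraries under the KO label, against 3161 to 4228 under the NC label. The 5 immune markers summed to 132 to 225 CPM under the KO label of that set, with PTPRC at 0, against 9.90 to 14.6 under the NC label, with CD3E at 0. The 4 endothelial markers summed to 6.67 to 12.9 CPM under the KO label and 2.05 to 4.89 under the NC label, with KDR at 0. At least 1 CPM on average was reached by 2 of the immune markers under the KO label and 1 under the NC label. Of the endothelial markers 1 reached it under each label. The part of these markers in the results was not tested. Acinar markers reached at most 0.312 CPM and endocrine markers at most 0.429 CPM in sum in any library of that set. Total counts per library ran to 33706226 to 43278149 at steady state, and 19177934 to 25768060 with actinomycin D.

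In the actinomycin D set 4 libraries stood apart from the others in nearly all of these genes, the 2 labelled KO at 6 h and the 2 labelled NC at 4 h. Tests over all labelled times are also given without them. The authors' deposited RPM values, scaled to mapped reads, summed over genes to 43.9% to 44.0% of the full scale in KO 6 h libraries and 43.1% to 43.4% in NC 4 h libraries, against 45.4% to 46.5% in the other 8 labelled KO and 44.9% to 46.3% in the other 8 labelled NC. The part of this lower share in the results was not tested.

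At steady state, 5 of the 10 genes were higher in KO than in NC and none was lower, led by ATF3. The tests called 24.4% of 17240 genes higher and 26.3% lower (edgeR quasi-likelihood test, Benjamini-Hochberg adjusted p under 0.05 over all genes, in all tests below). The median log2 change of the 10 genes was 0.42, against 0.02 over all genes. The 5 immune markers also stood apart in sum between these groups. They had 96.3 to 122 CPM with none at 0 in KO libraries, against 62.4 to 65.4 CPM with CD3E at 0 in NC libraries. So did the 4 endothelial markers, at 4.51 to 4.84 CPM in KO libraries, against 2.75 to 3.91 CPM in NC. Only 2 of the immune and 1 of the endothelial markers averaged at least 1 CPM in each group. What part these markers had in these results was not tested. Values below are CPM after TMM scaling, which corrects library totals for composition, with the SD over libraries.

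ATF3, a stress-induced bZIP factor that can repress as well as activate, stood at 21.3, 25.7 and 26.6 CPM in the KO libraries and at 13.95, 13.2 and 11.4 CPM in the NC libraries. The groups did not overlap, and ATF3 was higher in KO by 0.93 log2 (SE 0.11, adjusted p = 0.000181). FOSL1, which encodes FRA1, had 32.4, 32.9 and 36.8 CPM in KO libraries, against 21.0, 21.9 and 24.96 CPM in NC. It too was higher in every KO library than in any NC library, by 0.59 log2 (SE 0.09, adjusted p = 0.000803).

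FOSL2, which encodes FRA2, averaged 58.0 ± 2.12 CPM in KO libraries, against 44.6 ± 0.725 CPM in NC (SD, n = 3 each), higher by 0.38 log2 (SE 0.07, edgeR adjusted p = 0.00209). JUN, the strongest transactivator of its family, had 74.97, 75.7 and 85.5 CPM in KO libraries, against 55.5, 55.7 and 50.03 CPM in NC. It was higher in KO by 0.55 log2 (SE 0.09, adjusted p = 0.000693). IER2, a small nuclear protein induced by serum, averaged 48.5 ± 3.86 CPM in KO libraries, against 35.1 ± 3.44 CPM in NC (SD, n = 3 each), higher by 0.47 log2 (SE 0.10, edgeR adjusted p = 0.0032). Its expected counts were not whole in any of the 6 libraries, so part of its reads was shared with another gene, whereas those of the other 9 genes were whole.

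The other 5 genes did not pass the test. FOS held 49, 64 and 80 reads in the KO libraries and 44, 40 and 46 in the NC libraries, or 1.604 ± 0.222 CPM in KO libraries, against 1.14 ± 0.169 CPM in NC (SD, n = 3 each). The groups did not overlap, but the difference of 0.50 log2 (SE 0.20) had an adjusted p of 0.0636; without KO replicate 1 it passed, at 0.60. JUNB averaged 115.5 ± 15.1 CPM in KO libraries, against 116.2 ± 8.08 CPM in NC, JUND 99.2 ± 2.68 CPM in KO libraries, against 88.0 ± 11.1 CPM in NC (SD, n = 3 each), and in both the groups overlapped. JUND passed without NC replicate 2, at 0.26 log2. FOSB held 50 to 76 reads in KO libraries and 53 to 67 in NC libraries, and EGR1 8 to 44 in KO libraries and 15 to 30 in NC libraries. Their differences were 0.06 log2 for FOSB (SE 0.20) and 0.21 for EGR1 (SE 0.50), with groups that overlapped.

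**Figure D1:**
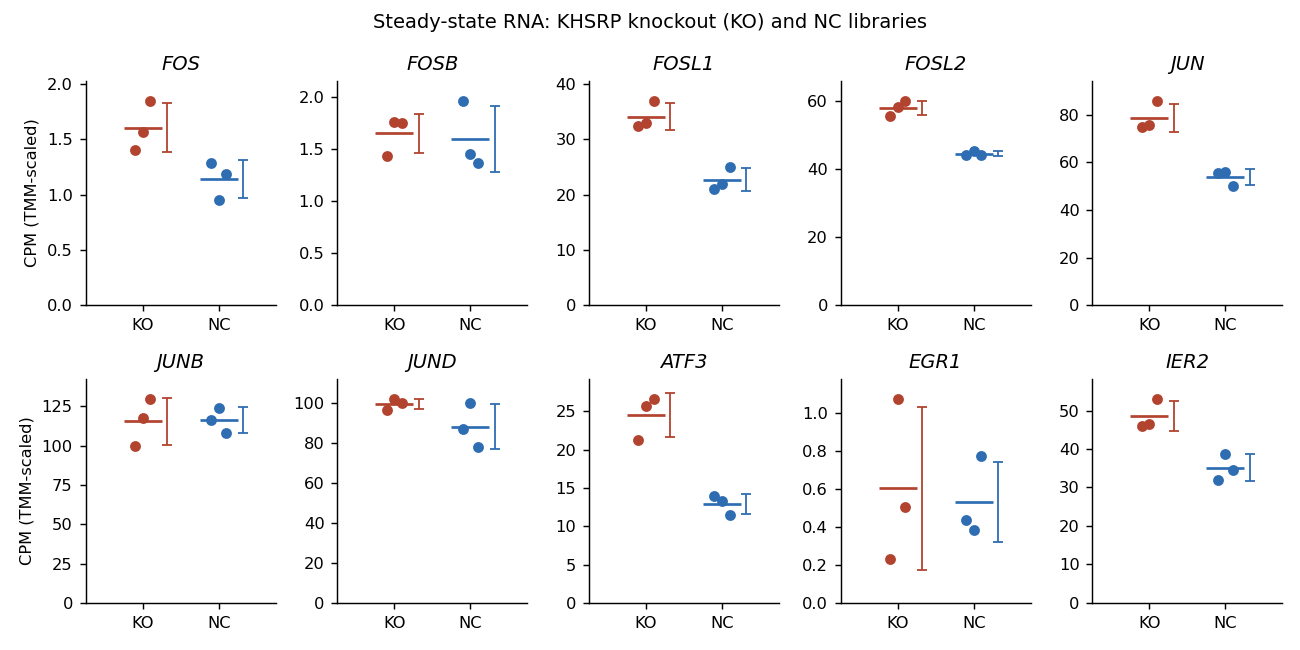
Steady-state levels of the 10 genes in CPM after TMM scaling (y axes from 0), with a point for each of 3 KO and 3 NC libraries, a line at the mean and a bar of 1 SD beside it. ATF3, FOSL1, FOSL2, JUN and IER2 are higher in all 3 KO libraries than in any NC library, FOS likewise with few reads, and JUNB, JUND, FOSB and EGR1 overlap.

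Per length, in the deposited TPM, JUND and JUNB stood at the top in both groups and FOS, FOSB and EGR1 at the bottom. JUND led with 59.1 TPM in KO libraries, against 46.4 TPM in NC, followed by JUNB with 28.9 TPM in KO libraries, against 24.6 TPM in NC. IER2, FOSL1 and JUN came next and overlapped one another, with means of 9.47 to 10.2 TPM in KO libraries, against 5.45 to 6.19 TPM in NC libraries. ATF3 averaged 5.94 TPM in KO libraries, against 2.61 TPM in NC, and FOSL2 3.60 TPM in KO libraries, against 2.45 TPM in NC. FOS, FOSB and EGR1 lay below 0.5 TPM in every library. ATF3 and FOSL2 did not overlap in KO libraries and did in NC libraries.

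In the actinomycin D set at 0 h, the same contrast called most of the genes lower under the KO label. FOS, EGR1, JUNB, FOSB, IER2, JUND and ATF3 were lower in libraries labelled KO, FOSL1 and JUN were higher, and FOSL2 did not pass, so that 2 of 10 were higher and 7 lower. Over all 17715 genes tested 35.5% were higher and 31.6% lower, and the median change was -1.57 log2 for the 10 genes and 0.06 for all.

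FOS had 1.14 and 0.537 CPM (24 and 10 reads) in the libraries labelled KO at 0 h and 7.22 and 6.38 CPM in those labelled NC. EGR1, a zinc finger factor induced by serum, had 2.53 and 2.31 CPM under the KO label, against 16.3 and 17.8 CPM under the NC label. Both were lower in each library labelled KO, FOS by -2.98 log2 (SE 0.22, adjusted p = 1.58e-15) and EGR1 by -2.81 log2 (SE 0.16, adjusted p = 2.59e-19). JUNB, which can hold JUN activity in check, had 5.77 and 5.64 CPM under the KO label, against 27.8 and 27.5 CPM under the NC label, a log2 change of -2.28 (SE 0.14, adjusted p = 4.9e-18). The changes of FOSB, IER2 and JUND were -2.09, -1.63 and -1.51 log2.

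FOSL1 had 26.2 and 25.8 CPM at 0 h in libraries labelled KO and 8.70 and 8.07 CPM in those labelled NC, higher by 1.63 log2 (SE 0.24, adjusted p = 2.23e-05). JUN had 19.0 and 19.3 CPM under the KO label, against 12.6 and 17.4 CPM under the NC label, higher by 0.35 log2 (SE 0.13, adjusted p = 0.0143). The call of JUN was lost without KO replicate 2 (0.35) or NC replicate 1 (0.14), with the 4 libraries that stood apart left out (0.32), and when the 0 h libraries were fitted alone (0.32). ATF3 had 7.87 and 7.89 CPM under the KO label, against 10.2 and 14.1 CPM under the NC label, lower by -0.62 log2 (SE 0.17, adjusted p = 0.00182), a call lost without NC replicate 2 (-0.37) and with ribosomal protein scaling (-0.17), and with a sign that turned on the authors' molecule scale (0.18). FOSL2 averaged 15.3 ± 4.17 CPM under the KO label, against 13.4 ± 0.403 CPM under the NC label (SD, n = 2 each), and the groups overlapped. Of the genes called in both sets, FOSL1 and JUN were higher under the KO label in each, and ATF3 and IER2 were higher in KO at steady state and lower at 0 h; this difference between the sets, which were processed separately, was not tested.

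Over labelled time, all 10 genes were highest in a single pair of libraries, the 2 labelled 6 h under the KO label and the 2 labelled 4 h under the NC label. At KO 6 h all 10 were higher than at KO 0 h, with a median change of 3.26 log2, where 19.7% of all genes were higher and 28.0% lower. At NC 4 h all 10 were higher than at NC 0 h, with a median of 2.79 log2, where 27.1% of all genes were higher and 24.4% lower. The median change of all genes was -0.09 log2 at KO 6 h and 0 at NC 4 h.

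FOS gave the widest change under both labels. Its CPM in libraries labelled KO at 0, 2, 4, 6 and 8 h averaged 0.841, 0.976, 1.06, 65.5 and 0.697, with 65.4 and 65.7 in the 2 libraries at 6 h. In libraries labelled NC the averages were 6.80, 5.58, 526.8, 7.45 and 5.29, with 537.5 and 516.1 in the 2 libraries at 4 h. The change against 0 h was 6.25 log2 at KO 6 h (SE 0.16, adjusted p = 4.19e-30) and 6.27 log2 at NC 4 h (SE 0.11, adjusted p = 2.56e-36), or 75.9-fold and 77.3-fold, from levels at 0 h that were unequal.

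FOSB averaged 1.88, 3.57, 4.76, 18.8 and 1.71 CPM over 0, 2, 4, 6 and 8 h under the KO label, and 7.99, 5.73, 118.3, 6.62 and 4.801 CPM under the NC label. Its change against 0 h was 3.32 log2 at KO 6 h (SE 0.19) and 3.89 log2 at NC 4 h (SE 0.15). EGR1 averaged 2.42, 4.39, 2.32, 59.5 and 3.80 CPM under the KO label, and 17.1, 17.2, 288.0, 17.0 and 11.02 CPM under the NC label. That was 4.61 log2 above 0 h at KO 6 h (SE 0.14) and 4.08 log2 above it at NC 4 h (SE 0.11). The 2 libraries of each of these peaks lay close together, at 61.5 and 57.5 CPM of EGR1 for KO 6 h and 289.2 and 286.8 CPM for NC 4 h.

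JUN and JUNB followed the same course. JUN averaged 19.2, 22.6, 29.4, 192.3 and 22.3 CPM over the 5 labelled times under the KO label, and 15.0, 13.5, 113.7, 14.9 and 9.84 CPM under the NC label. JUNB averaged 5.71, 6.86, 8.53, 94.1 and 6.17 CPM under the KO label, and 27.6, 31.8, 153.4, 29.2 and 24.9 CPM under the NC label. JUN was highest in the KO 6 h libraries and JUNB in the NC 4 h libraries, and the changes against 0 h were 3.33 log2 for JUN and 4.04 for JUNB at KO 6 h, and 2.92 for JUN and 2.47 for JUNB at NC 4 h (SE 0.11 to 0.13).

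FOSL1 and FOSL2, which in textbook accounts follow FOS as delayed targets, and JUND, which is held at a steady level in many cells, had smaller changes at other labelled times too. FOSL1 averaged 26.0, 21.9, 68.5, 225.3 and 22.3 CPM under the KO label, and 8.39, 10.8, 69.9, 7.89 and 8.85 CPM under the NC label. FOSL2 averaged 15.3, 12.9, 25.6, 55.1 and 15.0 CPM under the KO label and 13.4, 20.8, 72.6, 12.7 and 12.5 CPM under the NC label. JUND averaged 12.02, 9.13, 24.1, 38.3 and 6.52 CPM under the KO label and 34.2, 76.2, 152.8, 45.4 and 26.8 CPM under the NC label. At KO 4 h all 3 were among the 7 genes called higher, FOSL1 by 1.40 log2 (SE 0.19), JUND by 0.998 (SE 0.12) and FOSL2 by 0.75 (SE 0.14). At NC 2 h the test called JUND, at 1.15 log2 (SE 0.10, adjusted p = 1.14e-11), and FOSL2, at 0.63 (SE 0.14), but not FOSL1, at 0.37 (SE 0.25, adjusted p = 0.329).

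ATF3 had the smallest change of the 10 at KO 6 h. It averaged 7.88, 6.86, 8.71, 11.8 and 8.30 CPM over the 5 times under the KO label, and 12.1, 15.3, 76.0, 13.01 and 11.8 CPM under the NC label. Its change was 0.58 log2 at KO 6 h (SE 0.17, adjusted p = 0.00468), a call lost on the molecule scale (0.21), and 2.65 log2 at NC 4 h (SE 0.16, adjusted p = 6.7e-18). IER2 averaged 13.4, 15.1, 17.1, 122.4 and 18.1 CPM under the KO label, and 41.2, 46.3, 184.9, 45.8 and 38.0 CPM under the NC label, with changes of 3.20 log2 at KO 6 h (SE 0.12) and 2.17 log2 at NC 4 h (SE 0.11).

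**Figure D2:**
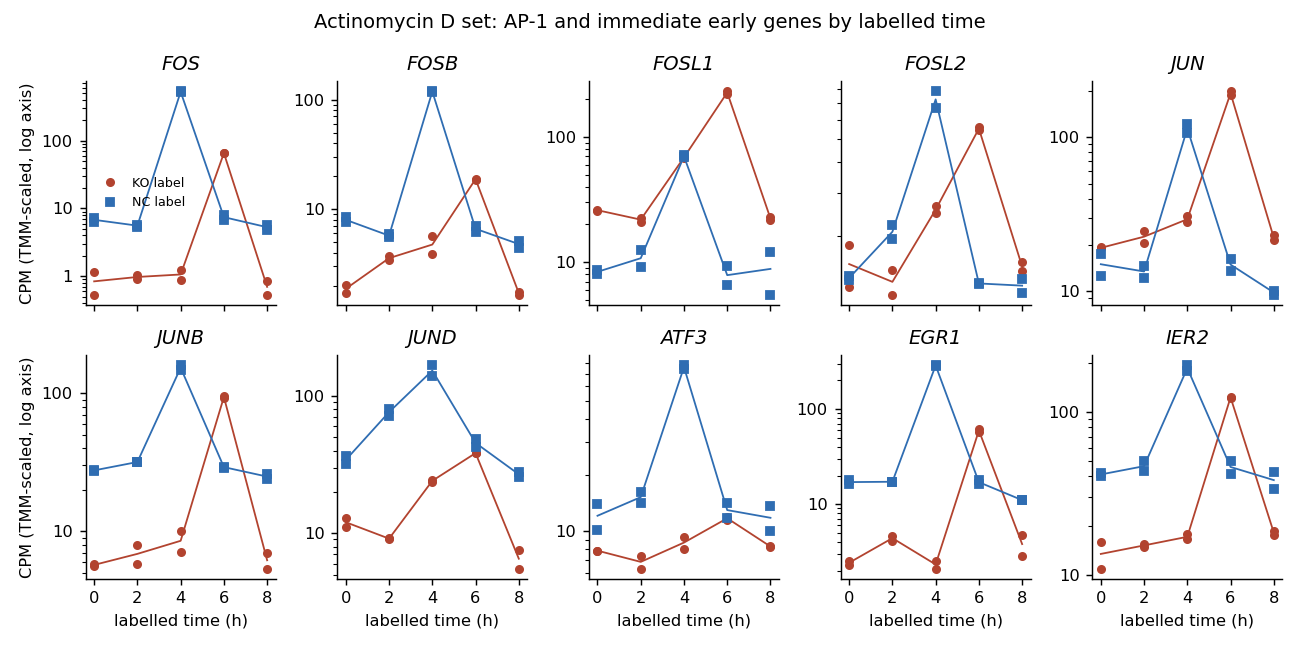
Levels of the 10 genes in CPM after TMM scaling (log axes) against labelled time in hours, with a point for each library (2 per label and time) and a line through the means, circles for the KO label and squares for the NC label. Each gene peaks at 6 h under the KO label and at 4 h under the NC label. The tests called JUND lower at 8 h than at 0 h under the KO label, and FOSB, EGR1 and JUN under the NC label.

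At the other labelled times fewer of the genes passed. At KO 2 h 2 were higher, FOSB by 0.93 log2 and EGR1 by 0.85 log2, where 4.87% of all genes were higher and 4.29% lower; the call of FOSB was lost without KO 0 h replicate 1 (0.81) or KO 2 h replicate 2 (0.87), and both calls were lost on the molecule scale (0.35 and 0.25). At KO 4 h 7 were higher, by 0.36 to 1.40 log2, where 12.0% of all genes were higher and 15.7% lower; FOS, ATF3 and EGR1 did not pass. The call of IER2 there, the smallest at 0.36 log2, was lost without KO 0 h replicate 1 (0.10) or either KO 4 h library (0.41 and 0.31), and that of JUNB without KO 4 h replicate 1 (0.31, against 0.57 with all libraries). On the molecule scale FOSL2 (0.43), JUN (0.27), JUNB (0.20) and IER2 (0.00) lost their calls. At KO 8 h EGR1 was higher by 0.64 log2, IER2 higher by 0.44 and JUND lower by -0.88, where 11.3% of all genes were higher and 10.7% lower. EGR1 lost its call without KO 0 h replicate 1 (0.71), KO 0 h replicate 2 (0.58) or KO 8 h replicate 1 (0.22) and with the 4 libraries that stood apart left out (0.63), and IER2 without KO 0 h replicate 1 (0.19) or KO 8 h replicate 2 (0.40). Both lost their calls with ribosomal protein scaling (0.41 for EGR1 and 0.22 for IER2), and both were lower on the molecule scale (-0.95 and -1.29).

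Under the NC label, 2 of the 10 were higher at 2 h (JUND and FOSL2) and FOSB was lower by -0.48 log2, where 16.9% of all genes were higher and 14.9% lower. FOSB lost that call without NC 0 h replicate 2 (-0.40), NC 2 h replicate 1 (-0.43) or NC 2 h replicate 2 (-0.53), with the 4 libraries that stood apart left out (-0.54), with ribosomal protein scaling (-0.15) and on the molecule scale (-0.51), where FOSL2 lost its call too (0.72). At NC 6 h JUND alone was higher, by 0.41 log2 (SE 0.11, adjusted p = 0.0162), where 3.12% of all genes were higher and 1.30% lower, and the call was lost without NC 0 h replicate 2 (0.32) or NC 6 h replicate 1 (0.32), while on the molecule scale JUND was lower (-0.13). At NC 8 h none was higher and FOSB, EGR1 and JUN were lower, by -0.73, -0.63 and -0.60 log2, where 1.61% of all genes were higher and 1.59% lower. JUN and FOSB lost their calls without NC 0 h replicate 2 (-0.35 and -0.65) or NC 8 h replicate 2 (-0.56 and -0.62), and with the 4 libraries that stood apart left out FOSB (-0.71) and EGR1 (-0.61) lost theirs.

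**Figure D3:**
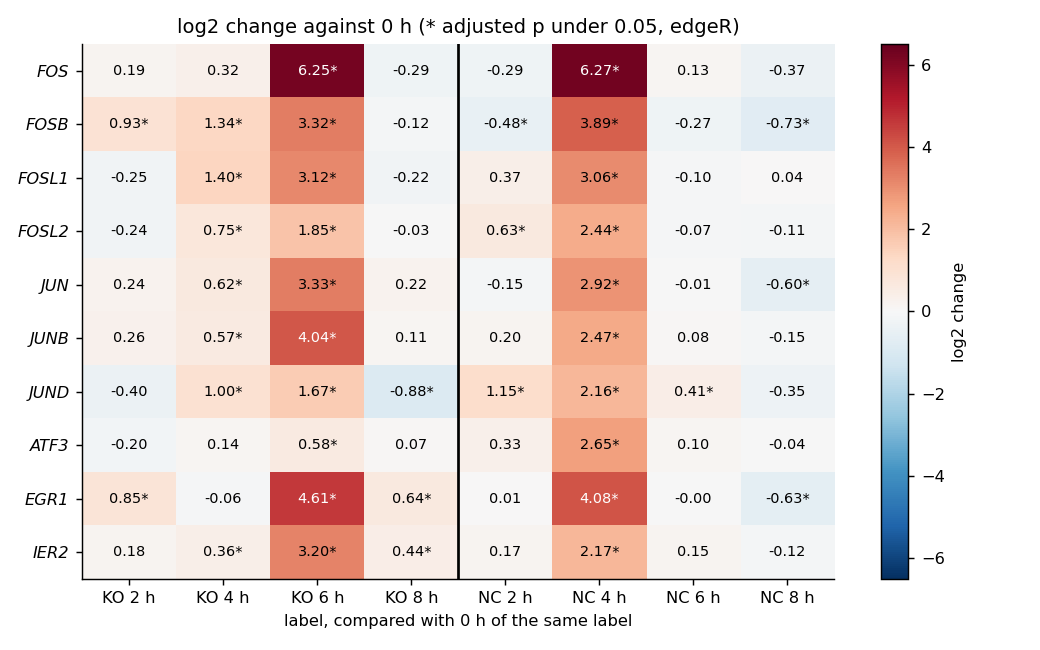
Log2 change of each gene against 0 h of the same label, for the KO label (left 4 columns) and the NC label (right 4 columns), with the value in each cell and a star where the adjusted p was under 0.05. The columns KO 6 h and NC 4 h hold stars for all 10 genes, with FOS at 6.25 and 6.27.

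All 10 genes differed between labelled times within the KO label and all 10 within the NC label, where the same F test called 55.9% and 54.7% of all genes. The profile over time differed between the labels for 10 of 10 genes, against 55.3% of all genes. Without the 4 libraries that stood apart, the 3 counts were 8, 4 and 5 of 10, where the tests called 41.8%, 39.3% and 33.8% of all genes; FOS and ATF3 then did not pass within the KO label, and FOSB, FOSL2, JUN, JUND and EGR1 still passed the test of the profile difference. The question of transcript lifetime was addressed by a straight line over labelled time, which is an assumption. A rise at a single labelled time counts as spread around that line, so a lack of calls says nothing about lifetime. The slope difference was 0.87 log2 per hour for FOS (SE 1.07) and 0.07 to 0.59 log2 per hour for the others, and edgeR called 0 of 10 genes and 0% of all genes higher or lower. At an unadjusted p under 0.05 edgeR passed 0 of the 10 and 529 of all genes, and DESeq2 called 0 of the 10 and 6 of all genes. With the 4 libraries that stood apart left out, edgeR called 0 of the 10 slope differences and 0 of 17191 over all genes. Without the 6 h label the slope difference lay below 0 in 9 of the 10 genes, at -0.80 for FOS, -0.26 for FOSB, -0.21 for EGR1, -0.10 for FOSL1 and -0.06 to -0.02 for the other 5, and at 0.00 for IER2; without the 4 h label all 10 stayed above 0. Slopes within a label were 0.05 to 0.86 log2 per hour under KO and -0.09 to -0.01 under NC, with 0 of 10 called in either. The levels peaked at KO 6 h and NC 4 h instead of falling along a line, so no half-life was computed.

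The scale of the counts mattered for the smaller changes. With TMM the median change of all genes was -0.09 log2 at KO 6 h, 0 at NC 4 h and 0.06 at 0 h between labels. With scaling on 82 ribosomal protein genes the same medians were 0.52, 0.61 and 0.50 log2. On the molecule scale, which each library derives from log2 RPKM by its own straight line, they were -0.59, 0.31 and 0.88 over 13988 genes. Under ribosomal protein scaling all 10 genes were called higher at KO 6 h and at NC 4 h, by 1.22 to 6.89 and 2.78 to 6.90 log2, where 51.9% and 55.3% of all genes were called higher. On the molecule scale 9 were called higher at KO 6 h, by 1.40 to 6.55 log2, where 11.2% of all genes were, and 10 at NC 4 h, by 2.63 to 7.05, where 38.8% were. Between labels at 0 h 6 genes were lower and 3 higher under each of these scales. With ribosomal protein scaling 49.7% of all genes were higher and 19.9% lower, and on the molecule scale 62.9% were higher and 11.3% lower. Of the 10 genes ATF3 left the lower calls and FOSL2 joined the higher ones, at 0.63 log2 with ribosomal protein scaling and 0.99 on the molecule scale.

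Both scales also moved the split of all calls. At 0 h 52.9% of all calls were higher under the KO label, against 71.4% with ribosomal protein scaling and 84.8% on the molecule scale. For KO 2, 4, 6 and 8 h against 0 h the shares of calls that were higher were 53.1%, 43.2%, 41.3% and 51.3%, against 4.67%, 99.0%, 98.9% and 6.12% with ribosomal protein scaling and 0.121%, 7.27%, 18.1% and 0.0156% on the molecule scale. For NC 2, 4, 6 and 8 h they were 53.0%, 52.7%, 70.6% and 50.4%, against 98.4%, 97.9%, 97.7% and 2.87% with ribosomal protein scaling and 94.4%, 81.0%, 0.649% and 0.0256% on the molecule scale. On the molecule scale all 10 genes were lower at 8 h under either label, where 91.8% of all genes were lower for KO and 83.7% for NC. The median gene lay at -1.79 log2 for KO and -1.19 log2 for NC.

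The makeup of the FOS family differed between the sets and labels in the per-length levels, as shares of the summed TPM or RPKM of its 4 genes. FOSL1 made up 69.6% to 71.0% of it in steady-state KO libraries and 63.3% to 68.5% in NC libraries. At 0 h of the actinomycin D set FOSL1 made up 79.8% to 83.2% in libraries labelled KO and 37.3% to 38.8% in those labelled NC, where FOS held 26.0% to 28.4%. In the peak libraries FOS held 18.5% to 19.1% at KO 6 h, beside 72.8% to 73.6% of FOSL1, and 75.4% to 76.3% at NC 4 h, beside 11.3% to 11.5% of FOSL1. Under the KO label FOSL1 thus remained the most abundant member at the peak, and under the NC label FOS took that place.

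Among the JUN genes, JUN made up 9.08% to 10.2% of the family's TPM in steady-state KO libraries and 6.60% to 7.86% in NC libraries, where JUND held 58.9% to 61.7% in KO libraries, against 57.8% to 62.8% in NC libraries. At 0 h of the actinomycin D set JUN held 37.2% to 40.2% of the family's RPKM in libraries labelled KO and 10.2% to 14.4% in those labelled NC. At the peaks JUN and JUNB held 44.3% to 46.3% and 38.6% to 40.3% at KO 6 h, and 17.6% to 17.7% and 41.4% to 43.4% at NC 4 h. No test was run on these shares.

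**Figure D4:**
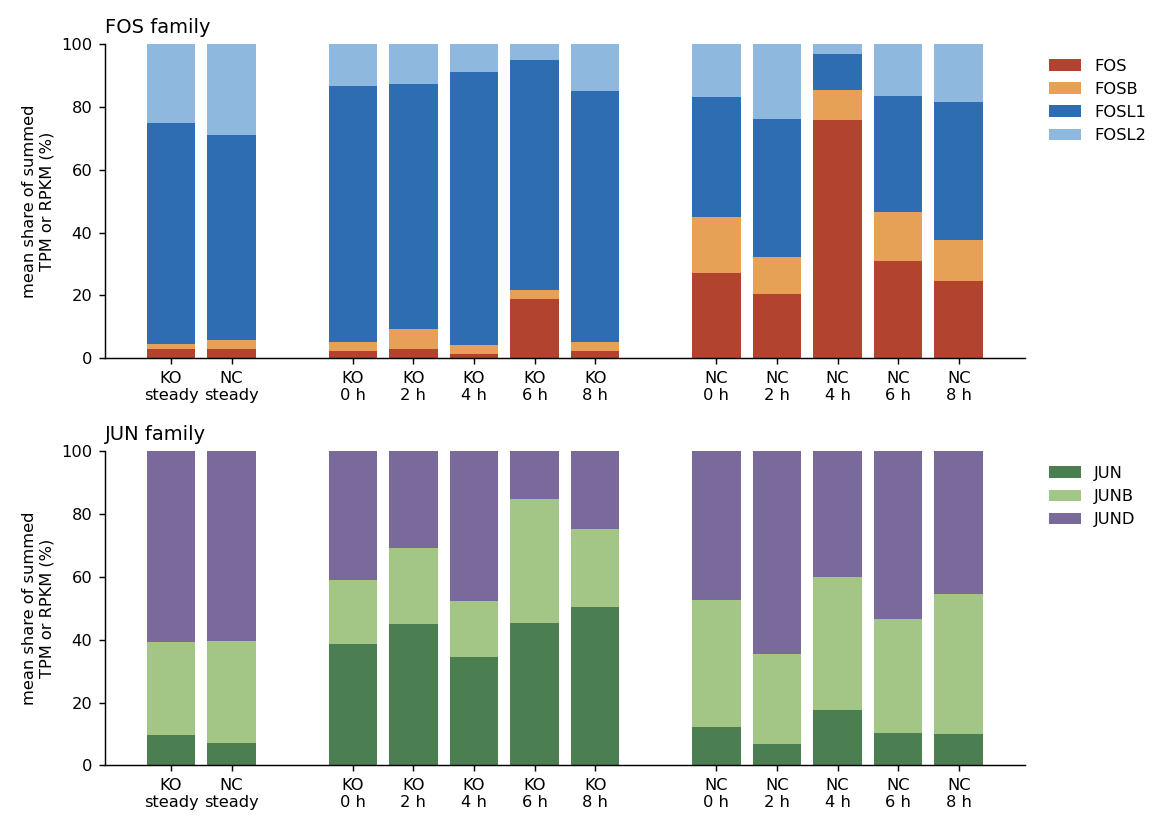
Mean share of each gene in the summed per-length level of the FOS family (top) and the JUN family (bottom), in percent, for the steady-state groups (TPM, 3 libraries each) and the actinomycin D groups by labelled time (RPKM, 2 libraries each). FOSL1 holds most of the FOS family in all KO groups and in steady-state NC, and FOS holds 75.8% of it at NC 4 h.

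Per length, the order of the genes at the peaks also differed. At KO 6 h FOSL1 led with 61.7 RPKM, ahead of JUN with 30.0 and IER2 with 29.5 RPKM, which overlapped, then JUNB with 26.1 and FOS with 15.8 RPKM. At NC 4 h FOS led with 117.1 RPKM, and EGR1, IER2, JUNB and JUND followed at 42.9 to 37.1 RPKM, each overlapping its neighbour. Levels of both peaks come from different labelled times, so their difference was not tested.

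Genes outside the list followed the same 2 peaks. Over the 10 libraries of a label, the 5 genes whose log2(CPM + 1) was most like that of FOS, of 9732 with a mean of at least 10 CPM, were ARRDC3, SOCS3, ZNF217, MIDN and MYC, with mean Pearson r of 0.99 over both labels. For JUN they were RNF168, SOCS3, TSC22D2, EDN1 and ARRDC3 (0.98 to 0.99), and for EGR1 MIDN, NFKBIZ, ARRDC3, MYC and TSC22D2 (0.98 to 0.99). The likeness rests largely on the 2 peak libraries of each label. Over the other 8, r with FOS was 0.78 under KO and 0.45 under NC for ARRDC3 and -0.07 and 0.03 for ZNF217, while r of RNF168 with JUN was 0.81 and 0.89. Within the list, r between FOS and JUN was 0.99 under both labels, and FOS and JUND were less alike, at 0.78 under KO and 0.83 under NC. The libraries share depth and composition, and these values are descriptions.

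Most other early-response genes were also higher in these libraries. Of 38 on a list chosen for this purpose, 31 were higher and 0 lower at KO 6 h, with a median change of 2.91 log2. At NC 4 h 34 were higher and 0 lower, with a median of 2.31. The medians were 2.85 and 2.22 with genes at 0 in a group set at the bound that 3 counts over the group allow. Of all genes 19.7% were higher and 28.0% lower at KO 6 h, and 27.1% higher and 24.4% lower at NC 4 h. DUSP1, a phosphatase that shuts off MAP kinases, stood at 142.2 ± 2.67 CPM at KO 6 h and 4.74 ± 2.00 at KO 0 h (SD, n = 2 each), higher by 4.89 log2 (SE 0.18). It stood at 258.8 CPM at NC 4 h and 5.35 at NC 0 h, higher by 5.60 log2 (SE 0.18). CCN1, a secreted matrix protein, reached 626.3 CPM at NC 4 h against 7.96 at NC 0 h, and KLF2, an endothelial and immune transcription factor, 9.33 CPM at KO 6 h against 0.251 at KO 0 h. EGR2 at KO 0 h and EGR3 at NC 0 h had 0 counts, and averaged 0.231 CPM at KO 6 h and 0.276 CPM at NC 4 h.

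At steady state 14 of the 35 early-response genes tested were higher in KO and 5 lower, with a median change of 0.18 log2, where 24.4% of all genes were higher and 26.3% lower with a median of 0.02. PPP1R15A, which restores translation after stress, stood at 35.5 ± 5.52 CPM in KO libraries, against 16.1 ± 0.875 CPM in NC (SD, n = 3 each), higher by 1.14 log2 (SE 0.12). MAFF, a small bZIP protein, and GADD45B, a stress-induced gene, were higher by 1.08 and 1.02 log2, while NR4A3, CCN2 and NFKBIZ were lower by -1.74, -0.58 and -0.37 log2. At 0 h of the actinomycin D set 15 of 38 were higher and 17 lower under the KO label, with a median of -0.13 log2, where 35.5% of all genes were higher and 31.6% lower with a median of 0.06. NR4A1, an orphan nuclear receptor, had 0.916 ± 0.148 CPM under the KO label, against 24.2 ± 3.72 CPM under the NC label (SD, n = 2 each), lower by -4.73 log2 (SE 0.22), and GEM, a small GTPase, was higher by 3.92 (SE 0.20).

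Among 18 tested AP-1 partners and related bZIP genes, 10 were higher and 2 lower at KO 6 h (median 0.28 log2), where 19.7% of all genes were higher and 28.0% lower, and 12 were higher and 1 lower at NC 4 h (median 0.89), where 27.1% were higher and 24.4% lower. CEBPB, a bZIP factor of acute responses, was higher by 2.84 log2 at KO 6 h (SE 0.14) and by 2.56 at NC 4 h (SE 0.13). DDIT3 and CEBPD were higher by 1.97 and 1.70 log2 at KO 6 h, NFE2L2, the oxidative stress regulator, and CEBPD by 2.52 and 2.36 at NC 4 h, and NFE2L1 was lower by -0.55 and -0.28 log2. At steady state 7 of 17 tested were higher in KO, led by JDP2 at 0.68 log2, ATF4 at 0.56 and MAFG at 0.49. The 4 lower ones were led by CREB1 at -0.79, ATF2 at -0.78 and CREB5 at -0.77. Of all genes 24.4% were higher and 26.3% lower there. At 0 h 9 of 18 were higher under the KO label and 5 lower, where 35.5% of all genes were higher and 31.6% lower. DDIT3 stood at 1.43, JDP2 at -1.30 and CEBPD at -1.19 log2. CREB5 had 7.59 CPM under KO and 0.0897 under NC, and BATF2 0.805 CPM under KO and 0 counts under NC.

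Kinases and serum response factors upstream of AP-1 were called in both directions. At steady state 5 of 22 tested were higher in KO and 11 lower, with a median of -0.28 log2, where 24.4% of all genes were higher and 26.3% lower: ELK1, MAP2K2 and MAPK3 (ERK1) by 0.55, 0.45 and 0.44 log2, and the SRF coactivator MRTFB and ELK4 by -1.53 and -1.23 log2. At 0 h 7 were higher under the KO label, among them MRTFB at 2.07 and ELK3 at 1.38 log2, and 8 lower, among them MAP3K1 at -1.29 and MAP2K2 at -1.25. Of all genes 35.5% were higher and 31.6% lower there. At KO 6 h 9 of the list were higher and 10 lower, where 19.7% of all genes were higher and 28.0% lower. At NC 4 h 10 were higher and 9 lower, where 27.1% of all genes were higher and 24.4% lower. The medians of the list were -0.08 and 0.11 log2 at these peaks. MRTFA and MAP3K1 were among the listed genes higher at both peaks, at 2.84 and 1.87 log2 at KO 6 h and 2.15 and 2.83 at NC 4 h. MAPK3 was lower by -0.68 and -0.82 log2.

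Genes known as AP-1 targets did not move as 1 group. At steady state 5 of 13 tested were higher in KO and 3 lower, with a median of 0.19 log2, where 24.4% of all genes were higher and 26.3% lower. The collagenase MMP1, the haem oxygenase HMOX1 and the urokinase receptor PLAUR were higher by 1.65, 0.76 and 0.64 log2, and CXCL8 and CD44 lower by -1.28 and -0.35. At 0 h 11 of 17 were higher under the KO label and 2 lower, with a median of 1.38 log2, where 35.5% of all genes were higher and 31.6% lower. PLAU, the urokinase itself, stood at 680.9 CPM under the KO label, against 1.18 CPM under the NC label, and MMP1 at 80.1 ± 1.38 CPM under the KO label, against 0.277 ± 0.139 under the NC label, whereas FST and IL11 were lower by -4.71 and -1.30 log2. At KO 6 h 3 were higher and 7 lower, with HMOX1 at 1.29 and MMP1 at -1.03 log2, where 19.7% of all genes were higher and 28.0% lower. At NC 4 h 7 were higher and 3 lower, where 27.1% of all genes were higher and 24.4% lower. IL6 stood at 5.13, CXCL8 at 2.76 and HMOX1 at 2.26 log2 there. TIMP1, a protease inhibitor, was lower at both peaks, by -0.81 log2 at KO 6 h and -0.73 at NC 4 h.

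**Figure D5:**
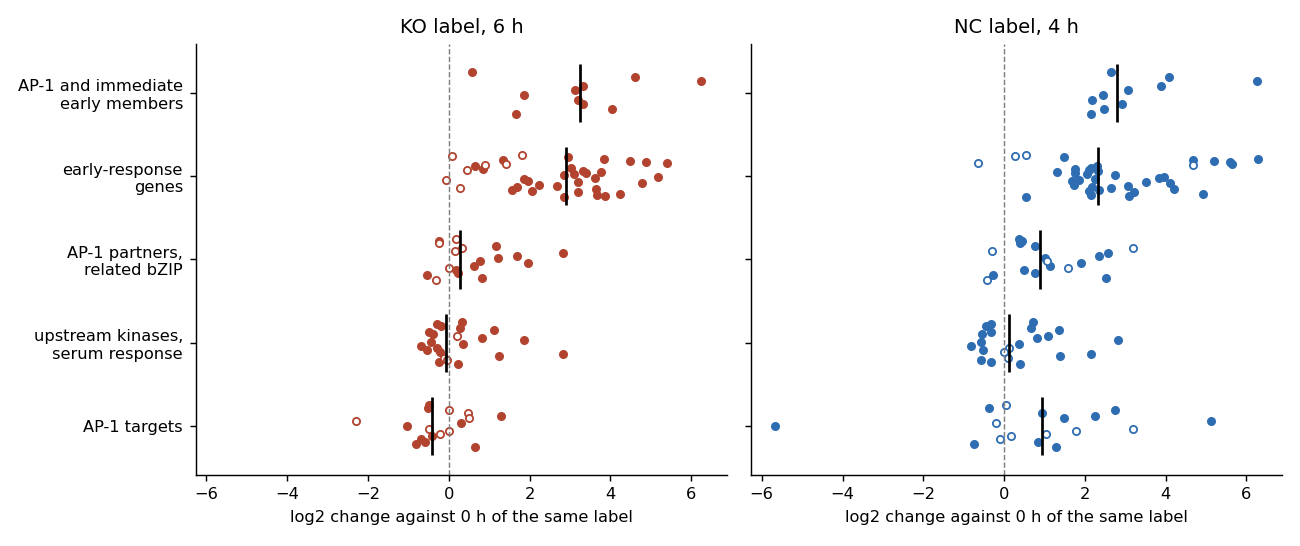
Log2 change against 0 h of the same label for the genes of 5 lists, at KO 6 h (left) and NC 4 h (right), with filled points for an adjusted p under 0.05, open points otherwise and a vertical line at each list's median. The 10 AP-1 and immediate early genes (medians 3.26 and 2.79) and the early-response list (2.91 and 2.31) lie to the right of 0, and the kinases and targets fall on both sides; genes with 0 counts in a group stand at their fitted value, which is no bound.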

How the data were processed

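Tables of 26 of the 31 samples were used; the crosslinking samples were not analysed here. Per the labels' protocols, RNA was extracted with TRIzol and mRNA libraries came from a Hieff NGS kit. The submitters' processing notes list Bowtie2, STAR, RSEM, deepTools and hg19 with no versions or roles, and nothing says whether counting used strand. For the steady state the authors deposited expected counts and TPM per gene, per the file headers; 10.2% of expected counts were not whole and all were rounded. For the actinomycin D set the authors deposited counts, RPM, RPKM and a log2 molecule value per gene, per the file headers; the last was a straight line of log2 RPKM in each library, and what set that line is not stated. The 2 sets were tested separately.

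Counts were filtered with filterByExpr, scaled by TMM and tested with edgeR 4.0.16 (robust quasi-likelihood, R 4.3.3), adjusted by Benjamini-Hochberg over all genes of each of 14 comparisons, with 0.05 as threshold. The actinomycin D fit had a mean per label and time over all 20 libraries; slopes came from a fit of label, hours and their interaction. Each fit was tested on simulated counts. Alternatives were DESeq2 1.42.0, no filter, a replicate block, ribosomal protein scaling, the molecule scale tested with limma 3.58.1, length-adjusted offsets, the 0 h libraries alone, each library and each labelled time left out and, chosen after seeing the data, the KO 6 h and NC 4 h libraries left out. Libraries of a group differed by more than sampling noise (chi-square per degree of freedom 3.96 to 5.48 in the actinomycin D set and 4.02 to 47.2 at steady state), so none was merged.

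The 10 genes, the other lists and the markers were chosen with earlier results of these data known. The genes named are those 10, KHSRP and CDKN2A as checks, up to 3 genes each way with the widest change from each list, and for FOS, JUN and EGR1 the 5 genes most like them. Some genes that this rule picks are not reported here. Coordinates in the deposited actinomycin D tables are hg19 and were not mixed with those of the RefSeq promoters.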

Additional observations from a re-analysis of the deposited data

Results flagged for a closer look

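The profile over the labelled times differed between the KO and NC labels for each of the 10 genes, by the F test of the label by time terms. The adjusted p was 4.27e-37 for FOS, 3.24e-23 for FOSB, 2.18e-08 for FOSL1, 2.32e-18 for FOSL2, 3.18e-26 for JUN, 4.24e-27 for JUNB, 1.46e-18 for JUND, 2.67e-14 for ATF3, 3.45e-32 for EGR1 and 1.19e-21 for IER2 (edgeR, 2 libraries per label and time). The peak of each gene fell at 6 h under the KO label and at 4 h under the NC label. With those 4 libraries left out, the difference passed for 5 of the 10 genes (FOSB, FOSL2, JUN, JUND and EGR1). It then passed for 33.8% of all genes, against 55.3% with all libraries. The test without them compared only 2 and 8 h with 0 h, so KO 4 h and NC 6 h did not enter it either. CDKN2A also separated the labels, and what goes with it cannot be told apart from them.

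In FOS, ATF3 and IER2 every KO library lay above every NC library at steady state and below it at 0 h of the actinomycin D set. How many of all genes did so was not counted. The tests called 24.4% of all genes higher at steady state and 31.6% lower at 0 h. The KO minus NC difference was 0.50 log2 at steady state and -2.98 at 0 h for FOS, which did not pass the test at steady state, 0.93 and -0.62 for ATF3, and 0.47 and -1.63 for IER2. The difference between the sets was not tested.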

How the results depend on the processing

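The 10 genes kept their side of the threshold at KO 6 h and NC 4 h under every alternative run, except ATF3 at KO 6 h on the molecule scale (0.21 log2). That scale reversed ATF3 at 0 h between labels (0.18), JUNB (-0.45) and IER2 (-0.51) at KO 2 h, JUN (-1.54), JUNB (-1.60), ATF3 (-1.63), EGR1 (-0.95) and IER2 (-1.29) at KO 8 h, JUND at NC 6 h (-0.13) and FOSL1 at NC 8 h (-1.17). Called members there were 6, 3 and 10 at KO 2, 4 and 8 h and 1 and 10 at NC 2 and 8 h. Called genes, of 13988 tested, were 9928, 6891 and 12846 at KO 2, 4 and 8 h and 2756, 6938 and 11707 at NC 2, 6 and 8 h. With ribosomal protein scaling called members were 1 at KO 8 h and 7 and 5 at NC 2 and 8 h. Called genes, of 17715 tested, were 4804 at KO 8 h, and 6814, 1584 and 1638 at NC 2, 6 and 8 h. DESeq2 called 1389 and 967 genes at NC 6 and 8 h and 6 for the slope difference. Without the 4 h label the slope difference called 1 gene. With the KO 6 h and NC 4 h libraries left out, called members were 1 at NC 8 h, 4 for any time within NC and 5 for the profile difference. Called genes, of 17191 tested, were 717, 6759 and 5813 in these comparisons. These compare with 1622, 4902 and 3907 genes in the main fits of KO 2, 4 and 8 h and 5627, 783 and 568 in those of NC 2, 6 and 8 h. The main fits called 9683 genes for any time within NC and 9790 for the profile difference. The cause of these changes was not tested, other than fewer libraries where some were left out. With the KO 6 h and NC 4 h libraries left out, the tests over time also held fewer labelled times.

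Leaving out 1 library at a time gave 1 to 2 called members and 829 to 950 called genes at KO 2 h, 1 to 2 members at KO 8 h, 0 to 1 members and 328 to 351 genes at NC 6 h, 1 to 3 members and 139 to 592 genes at NC 8 h, and 0 to 2 genes for the slope difference. With the lone library of such a group the spread is taken from the other groups. Same-numbered libraries did not deviate together (r of -0.19 to 0.14 at steady state, -0.05 to 0.06 in the actinomycin D set, 2 of 6 and 8 of 20 libraries correlating best with their own number), so the numbers were not taken as pairs; the replicate block changed no call of the 10 genes and gave 8706 called genes at steady state. Of the 10 genes FOS, FOSB and EGR1 had the fewest reads at steady state, 80 or fewer per library.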
